A study of Mus musculus with 6 samples.

Results

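Rab proteins are small GTPases that act as address labels of membrane traffic. They were examined here in synaptoneurosomes, preparations of pinched-off synapses with attached presynaptic and postsynaptic parts. The members were all protein-coding genes whose symbol is Rab followed by a number from 1 to 44 and at most a letter, which gave 59 of the 21958 genes in the count table. The 9 other symbols that start with Rab and a digit (Rab3gap1, Rab3gap2, Rab3ip, Rab3il1 and the Rab11fip genes) name regulators or binding partners and were left out. The synaptoneurosomes came from the hippocampus and adjoining cortex of FVB mice aged 6 to 8 weeks, pooled over several animals. The 3 stimulated libraries (NMDA polyribosomes) hold RNA from the polyribosome fractions of a sucrose gradient after NMDA at 50 µM with glutamate at 10 µM for 30 s, then the NMDA receptor blocker APV at 120 µM and 20 min of incubation. The 3 control libraries (unstimulated total RNA) hold unfractionated RNA of synaptoneurosomes that were not stimulated. In the paper's stimulation protocol, unstimulated controls stayed on ice in cycloheximide, whereas stimulated samples were warmed and incubated. Stimulation, this handling and polyribosome isolation therefore differ together between the groups and cannot be told apart. The comparison asks which Rab mRNAs are over- or under-represented on polyribosomes of stimulated synaptoneurosomes relative to the total RNA of unstimulated ones.

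The polyribosome libraries held 5294482 to 7361580 counts and the total RNA libraries 1044955 to 3738022, the smallest being total RNA replicate 3. No source states that each library came from separate mice, so p-values measure the spread between these libraries. Markers of synapses and neurons (10 genes, such as Syp and Dlg4) summed to 13018 to 16162 CPM (counts divided by the scaled library size, per 1000000) on polyribosomes and 11990 to 13917 CPM in total RNA, and none was at 0 in every library. Markers of other cells were present as well. The log2 fold changes of the 11 astrocyte markers were all positive (median 0.54), and their sum was 41511 to 43926 CPM on polyribosomes against 32708 to 37308 CPM in total RNA. All 11 oligodendrocyte markers (median 0.51, sums of 11269 to 15119 against 8095 to 11234 CPM), all 11 microglia markers (median 0.39, sums of 1029 to 1199 against 673 to 934 CPM) and 7 of 10 endothelial markers (median 0.23, sums of 374 to 654 against 401 to 420 CPM) were positive too, and none of these markers was at 0 in every library. These values compare polyribosome RNA after stimulation with total RNA, from aliquots of synaptoneurosome preparations, and they do not measure numbers of cells. The part of these other cells in the Rab values was not tested.

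A Rab protein cycles between a GDP-bound state held in the cytosol and a GTP-bound state on a membrane. Exchange factors load GTP, GTPase-activating proteins end the active state, and effectors such as tethers and motor adaptors read it. Membrane attachment depends on lipid groups added to cysteines at the end of the protein. At synapses, Rab3 and Rab27 proteins are known for their role on synaptic and dense-core vesicles, and Rab5, Rab4 and Rab11 for the endosomes through which receptors and vesicle membrane are recycled.

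The family feature can be read directly from the coding sequences. In the Gencode vM21 transcripts (GRCm38), all 59 Rab genes had at least 1 cysteine codon (TGC or TGT) among the last 5 codons before the stop, and 50 (84.7%) had at least 2. Of all 21633 protein-coding genes of the annotation, 12.5% had at least 1 and 1.93% at least 2. The 9 Rab genes with a single such codon were Rab8a, Rab8b, Rab13, Rab18, Rab23, Rab28, Rab38, Rab40b and Rab40c. The last 30 coding bases, stop codon included, are shown for the members on which the results below turn, with in-frame cysteine codons in capitals.
Rab3a: gcgccacctcatcaggatTGTgccTGCtga
Rab3b: cctctgctgcagcagaacTGCtctTGTtag
Rab3c: cctccaccacagcccaacTGTggcTGCtaa
Rab3d: cccccacagccgagcagcTGCagcTGTtag
Rab5a: ccagccagaagccagTGTTGTagtaactga
Rab5b: cagaacaagagccagTGTTGTagcaactga
Rab5c: gccagccggagccagTGCTGCagcaactga
Rab9: aagcccaagccaaactcatctTGCTGTtga
Rab9b: ggctccaaagcaagttcttctTGTTGTtag
Rab1b: gtgaagcctgctagcggtggcTGCTGCtag
Rab6b: ccggccagcgagggcggcTGCtccTGTtaa
Rab13: aagaagaagaacaagTGCttgttaggctga
Rab28: cctcggagctccatgTGTgcagtgcagtga
The 4 Rab3 genes and Rab6b keep a codon between the cysteines. Rab1b, Rab9 and Rab9b end in adjacent cysteines, and in the Rab5 genes 2 more codons follow the pair. Rab13 and Rab28 have a lone cysteine 4 codons from the end.

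Rab mRNAs made up 0.237% to 0.307% of the counts of a polyribosome library and 0.259% to 0.340% of a total RNA library. Of the 59 genes, 49 had counts in all 6 libraries, and 48 passed the filter on low counts and were tested. The tested Rab genes had a median level of 24.3 CPM, beside 23.6 CPM for all genes tested, and of 9.38 CPM per kb of transcript beside 7.58 CPM per kb. Rab6b, which acts in Golgi transport and is enriched in neurons, had the highest level per length at 115 CPM per kb and alone held 17.1% to 21.4% of the Rab counts of a library. Rab3a, the Rab of synaptic vesicles, followed at 81.0 CPM per kb. Next came Rab5c of early endosomes at 55.0, Rab15 of endosomes at 54.5, Rab7 of late endosomes at 51.0 and Rab6a of the Golgi at 47.9 CPM per kb. Rab3c had a higher mean than Rab3a (248 against 126 CPM), though not in polyribosome replicate 3 (688 against 752 counts). The Rab3c transcript is longer (8444 against 1556 bases), and its level was 29.4 CPM per kb.

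**Figure D1:**
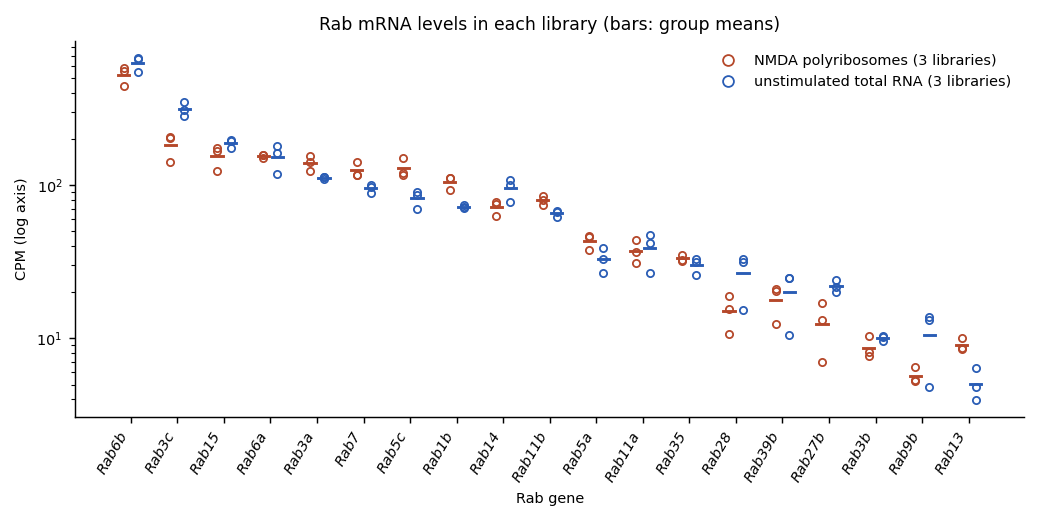
CPM (log axis) of 19 named Rab genes, with 1 point per library and a bar at each group mean (3 NMDA polyribosome and 3 unstimulated total RNA libraries). Rab6b is highest in every library, and the polyribosome points of Rab3c, at most 206 CPM, lie below its total RNA points, at least 284 CPM.

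The 11 genes under the filter were Rab4b, Rab17, Rab19, Rab20, Rab25, Rab32, Rab37, Rab38, Rab39, Rab42 and Rab44, none with more than 31 counts over the 6 libraries. Several are known from other tissues, such as Rab25 and Rab17 from epithelia and Rab38 from melanocytes. Rab19 and Rab25 had no count in any library. A count of 0 allows up to 3 counts, which is 0.406 to 2.88 CPM depending on the library and covers counting error only. The smallest total among the tested Rab genes was 63 counts.

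No Rab gene passed the threshold in either direction (adjusted p under 0.01 in edgeR's quasi-likelihood test over 12255 genes, 3 against 3 libraries). Of all genes tested, 0.71% passed it higher on polyribosomes and 2.36% lower, 87 and 289 genes (42 and 366 when only library totals set the scale). The lowest adjusted p of a Rab gene was 0.016, for Rab3c, and DESeq2 called only Rab3c lower and no Rab gene higher. At an unadjusted p under 0.05 there were 9 Rab genes (18.8% of 48), 4 higher and 5 lower, whereas 3980 of all genes (32.5%) had such a p. The Rab log2 fold changes ran from −1.04 for Rab9b to 0.85 for Rab13, with a median of −0.018 beside 0.00 for all genes. Their middle 50% lay between −0.26 and 0.18, against −0.34 and 0.32 for all genes, and 38 of the 48 lay within 0.5 of 0. The median of the 48 genes was 0.08, −0.13 and 0.13 in the 3 same-numbered pairs of libraries.

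The groups' CPM ranges did not overlap for 7 Rab genes higher on polyribosomes (14.6%; 17.4% of all genes tested) and for 4 lower (8.33%; 18.9% of all). The 7 were Rab1b, Rab3a, Rab4a, Rab5c, Rab7, Rab11b and Rab13, and the 4 were Rab3c, Rab14, Rab27b and Rab40b. In all 3 same-numbered pairs, 12 Rab genes were higher (25%; 29.3% of all genes) and 8 lower (16.7%; 31.6% of all). None of these shares was above that of all genes. With the replicate number as a block, which compares each polyribosome library with the total RNA library of the same number, 3 Rab genes were called higher (6.25%; 11.8% of all genes) and 5 lower (10.4%; 13.2% of all). They were Rab13, Rab5c and Rab1b, and Rab9b, Rab28, Rab3c, Rab27b and Rab14. The Rab shares were below those of all genes here as well.

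**Figure D2:**
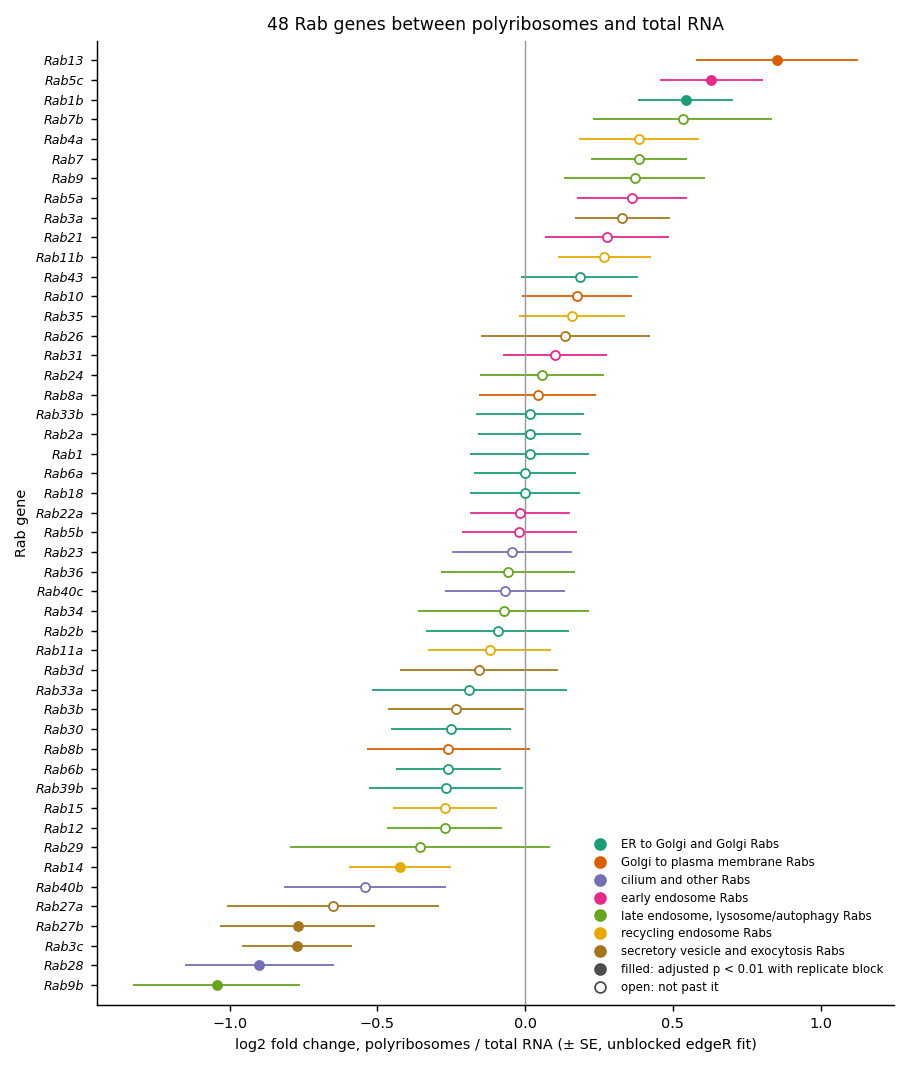
Log2 fold change of each of the 48 tested Rab genes (polyribosomes over total RNA, unblocked edgeR fit), with bars of 1 SE and colours for the role of the protein. Most points lie within 0.5 of 0, and the 8 filled points, called with the replicate block, lie toward both ends.

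The roles below hold few genes each and were not tested against all genes, of which 49.9% were negative. Among the Rabs of secretory vesicles and exocytosis, 5 of the 7 tested genes (71.4%) had a negative log2 fold change and the median was −0.23. None was called without the block, and with it Rab3c and Rab27b were called lower (28.6%; 13.2% of all genes) and none higher. With the block and the offset for GC content and length, described below, 0 of the 7 were called. Rab3c (chr13:110054187-110280206, minus strand), a vesicle Rab close to Rab3a, was at 204, 206 and 142 CPM on polyribosomes and at 347, 308 and 284 CPM in total RNA. Every polyribosome library was below every total RNA library. The log2 fold change of Rab3c was −0.77 (SE 0.19, adjusted p = 0.016) and −0.78 with the block (adjusted p = 2.23e-07), and it was called lower in all 6 blocked fits that left out a library. In such a fit the partner of the left-out library no longer informs the contrast. The Rab calls were the same whichever library of a pair was left out, so the 6 fits are not 6 separate checks.

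Rab27b, which helps to dock secretory vesicles, was at 16.9, 13.1 and 7.0 CPM on polyribosomes and at 21.6, 20.1 and 24.0 CPM in total RNA. The ranges did not overlap, and the lowest value was polyribosome replicate 3. Its log2 fold change was −0.77 (SE 0.26, adjusted p = 0.060) and −0.69 with the block (adjusted p = 0.0017), a call that was kept in only 2 of the 6 blocked fits without a library, those without polyribosome or total RNA replicate 1. Rab3a (chr8:70754679-70758677, plus strand), which tethers synaptic vesicles to the release site, went the other way, with 124, 142 and 155 CPM on polyribosomes and 113, 110 and 112 CPM in total RNA. Its groups did not overlap either, but its log2 fold change of 0.33 (SE 0.16) did not pass the test (adjusted p = 0.17, and 0.042 with the block). With the block and an offset for GC content and length, described below, the log2 fold change of Rab3a was 0.011 (adjusted p = 0.96). Rab3b was at 7.71 to 10.3 CPM on polyribosomes and 9.59 to 10.4 CPM in total RNA, which overlapped.

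The early endosome Rabs had a median of 0.19 over 6 tested genes, of which 4 were positive. Rab5 proteins start early endosomes and drive their fusion. Rab5c (chr11:100715009-100738215, minus strand) was at 116, 119 and 150.1 CPM on polyribosomes and at 86.2, 90.1 and 70.0 CPM in total RNA. All polyribosome libraries were above all total RNA libraries. The log2 fold change of Rab5c was 0.63 (SE 0.17, adjusted p = 0.028) and 0.59 with the block (adjusted p = 1.1e-04), and it was called higher in all 6 blocked fits without a library. Rab5a was at 46.1, 46.4 and 37.7 CPM against 38.7, 33.2 and 26.9 CPM, with a slight overlap between polyribosome replicate 3 and total RNA replicate 1. Its log2 fold change was 0.36 (SE 0.19, adjusted p = 0.19). For Rab5b the log2 fold change was −0.019 (SE 0.19).

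The recycling endosome Rabs had a median of 0.020 over 6 tested genes, 3 of them positive. Rab14, which acts between the Golgi and endosomes, was at 74.9, 77.3 and 63.2 CPM on polyribosomes and at 108, 99.8 and 77.7 CPM in total RNA, without overlap. The log2 fold change of Rab14 was −0.43 (SE 0.17, adjusted p = 0.10), and it was called lower with the block (−0.41, adjusted p = 0.0058), in 2 of the 6 blocked fits without a library, those without replicate 3 of either group. Rab11a and Rab11b, which return receptors to the surface, had log2 fold changes of −0.12 (SE 0.21) and 0.27 (SE 0.16). Rab11b was at 74.5 to 84.5 CPM on polyribosomes and 62.3 to 68.3 CPM in total RNA, and Rab11a at 30.9 to 43.6 and 26.9 to 47.2 CPM. Rab15 was at 176, 167 and 124 CPM against 175, 194 and 197 CPM, so that its pairs gave 0.00, −0.21 and −0.67. Rab35, which acts in recycling and on actin, had a log2 fold change of 0.16 (SE 0.18).

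The Rabs of ER to Golgi and Golgi traffic had a median of 0.00 over 12 tested genes, 5 of them positive. Rab1b, which moves vesicles from the ER to the Golgi, was at 112, 92.9 and 112 CPM on polyribosomes and 70.8, 74.3 and 71.9 CPM in total RNA. The 3 total RNA values lay close together and all below the polyribosome values. Its log2 fold change was 0.54 (SE 0.16, adjusted p = 0.036), and with the block it was called higher (0.53, adjusted p = 4.5e-04), in 2 of the 6 blocked fits without a library, those without replicate 3 of either group. Rab6b was at 582, 552 and 443 CPM against 677, 666 and 546 CPM, and Rab6a at 156, 158 and 151 CPM against 162, 179 and 119 CPM. Rab6b was lower in each of the 3 pairs (−0.22, −0.27 and −0.30), while the groups overlapped and its log2 fold change of −0.26 (SE 0.18) did not pass the test (adjusted p = 0.33). The log2 fold change of Rab6a was −0.00 (SE 0.17). Rab39b, a neuronal Rab whose human counterpart is linked to intellectual disability, was at 12.4 to 20.9 CPM against 10.5 to 24.8 CPM (log2 fold change −0.27, SE 0.26).

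The 4 Rabs of Golgi to plasma membrane traffic had a median of 0.11. Rab13, which acts at cell junctions, had the highest fold change of the family from low counts. It was at 8.66, 8.59 and 10.1 CPM on polyribosomes and at 3.97, 6.36 and 4.79 CPM in total RNA, the last value from 5 counts. The groups did not overlap, and the log2 fold change of Rab13 was 0.85 (SE 0.27, adjusted p = 0.048). With the block it was just inside the threshold (0.82, adjusted p = 0.00996), and it passed in 0 of the 6 blocked fits without a library, where its adjusted p was 0.019 to 0.23.

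The late endosome, lysosome and autophagy Rabs had a median of −0.06 over 9 tested genes. Rab7, which brings late endosomes to the lysosome, was at 116, 116 and 142 CPM on polyribosomes and at 96.6, 100.1 and 89.2 CPM in total RNA, without overlap. Its log2 fold change of 0.38 (SE 0.16) did not pass the test (adjusted p = 0.12, and 0.018 with the block). Rab9b, related to the late endosome Rab9, had the lowest fold change of the family. It was at 5.28, 6.48 and 5.35 CPM on polyribosomes and at 13.2, 13.7 and 4.79 CPM in total RNA. Total RNA replicate 3, again with 5 counts, lay below all polyribosome values, and the 3 pairs gave −1.31, −1.08 and 0.05. The log2 fold change of Rab9b was −1.04 (SE 0.28, adjusted p = 0.026) and −1.03 with the block (adjusted p = 2.1e-04). Without total RNA replicate 3 it was called lower without the block as well, the only Rab call of the unblocked fits without a library. With the block it was called in 2 of 6 such fits, those without replicate 3 of either group, the pair that gave 0.05.

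The 4 tested genes set apart as cilium and other Rabs were all negative (49.9% of all genes were), with a median of −0.30. Rab28, found at cilia, was at 18.8, 15.5 and 10.7 CPM on polyribosomes and at 32.8, 31.5 and 15.3 CPM in total RNA. It was lower in each pair (−0.80, −1.02 and −0.55), although total RNA replicate 3 lay within the polyribosome range. The log2 fold change of Rab28 was −0.90 (SE 0.25, adjusted p = 0.030) and −0.85 with the block (adjusted p = 1.8e-05), which was kept in 4 of the 6 blocked fits without a library, all but those without replicate 2 of either group.

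A ratio of counts of related Rab genes within a library needs no scaling between libraries. Of 19 pairs of related genes, 16 had at least 20 counts of each member, and in 5 of them the groups did not overlap, each with p = 0.1 in a two-sided exact permutation test, the smallest that 3 against 3 libraries allow (adjusted p = 0.32 over the 16 pairs). An exact sign-flip test of the 3 same-numbered differences, added after the data were seen, cannot go below 0.25. No pair could therefore pass a threshold of 0.05 in either test. The Rab3a to Rab3c log2 ratio was −0.72, −0.53 and 0.13 on polyribosomes and −1.62, −1.49 and −1.34 in total RNA. Every polyribosome library thus held relatively more Rab3a than any total RNA library, with a mean difference of 1.11 and pair differences of 0.90, 0.95 and 1.46. The coding sequences of these 2 genes are 73.2% identical. The Rab3a to Rab3b log2 ratio was also higher on polyribosomes, 4.0 ± 0.11 against 3.44 ± 0.05 (SD, n = 3 each).

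The Rab9 to Rab9b log2 ratio was 1.72, 1.07 and 1.19 on polyribosomes and 0.00, −0.27 and 0.45 in total RNA, a mean difference of 1.27. Here total RNA replicate 3, which set Rab9b apart, still lay below the polyribosome range. Its ratio rests on only 7 counts of Rab9 and 5 of Rab9b. The Rab5a to Rab5b log2 ratio was −0.54 ± 0.09 against −0.91 ± 0.10 and the Rab40b to Rab40c ratio −2.05 ± 0.11 against −1.55 ± 0.10 (SD, n = 3 each). The Rab40 pair had the most even differences, −0.52, −0.50 and −0.48. In the other 11 pairs the groups overlapped, although in 5 of them all 3 same-numbered differences had 1 sign, namely Rab1/Rab1b, Rab3a/Rab3d, Rab6a/Rab6b, Rab8a/Rab8b and Rab11a/Rab11b. The Rab6a to Rab6b difference was 0.29 and the Rab7 to Rab7b difference 0.00. These ratios take no account of GC content or length.

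**Figure D3:**
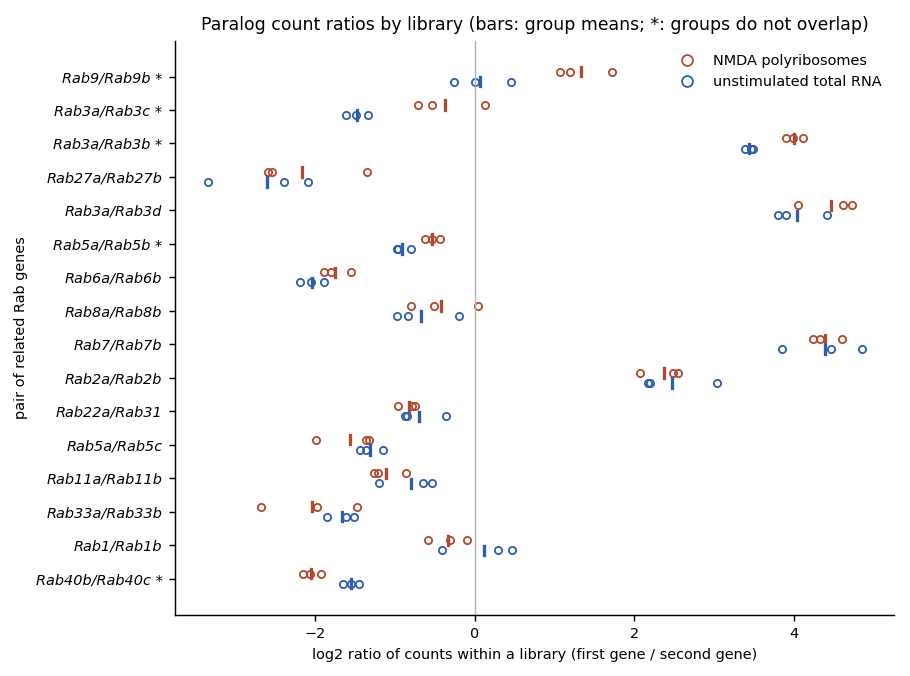
Log2 ratio of the counts of 2 related Rab genes within each library, for 16 pairs, with 1 point per library and a bar at each group mean (red, NMDA polyribosomes; blue, unstimulated total RNA). Asterisks mark the 5 pairs without overlap, among them Rab3a/Rab3c, whose polyribosome points lie 1.11 higher on average.

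The fold changes moved with the base composition of the transcripts. Across the 48 Rab genes the log2 fold change had a Pearson r of 0.40 (Spearman 0.33) with transcript GC content and of −0.29 (Spearman −0.22) with log2 transcript length. Across 12212 genes of known length these were 0.53 (Spearman 0.53) and −0.33 (Spearman −0.33). The points are genes that share the same 6 libraries and are not independent. Among the 8 genes called with the block, Rab1b (58.9% GC), Rab5c (54.5%) and Rab13 (53.1%) were higher, and Rab27b (37.9%), Rab9b (41.3%), Rab3c (41.9%), Rab14 (43.0%) and Rab28 (45.4%) were lower. The median of the Rab genes was 48.5% GC and of all genes 50.5%.

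**Figure D4:**
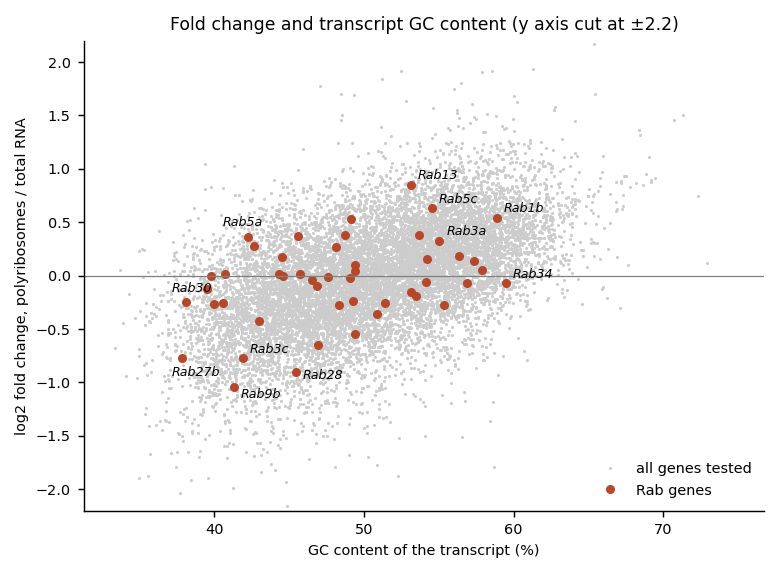
Log2 fold change (polyribosomes over total RNA, unblocked fit) against transcript GC content in percent, for all genes tested (grey) and the 48 Rab genes (red). The low-GC genes Rab27b, Rab9b and Rab3c lie low and the GC-rich Rab1b and Rab5c high, along the slope of the grey cloud. Other Rab genes lie off it, such as Rab5a (42.3% GC, 0.36) and Rab34 (59.5% GC, −0.07).

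When a smooth offset for GC content and length was added to the blocked fit, 5 Rab genes were called higher (10.4%; 8.7% of all genes) and 2 lower (4.17%; 7.68% of all), and only Rab28 was called in both blocked fits. Rab28 kept a log2 fold change of −0.77 (adjusted p = 5.2e-05). The Rab3c log2 fold change shrank to −0.32 (adjusted p = 0.026), that of Rab5c to 0.35 (adjusted p = 0.019), that of Rab9b to −0.67 (adjusted p = 0.021) and that of Rab1b to 0.13 (adjusted p = 0.46). For Rab27b it was −0.15 (adjusted p = 0.57), for Rab14 −0.14 (adjusted p = 0.40) and for Rab13 0.57 (adjusted p = 0.11). The genes called with the offset were the endosomal Rab5a (0.63, adjusted p = 1.0e-04), Rab21 (0.65, adjusted p = 3.0e-05) and Rab11b (0.46, adjusted p = 0.0014), the exocytic Rab10 (0.43, adjusted p = 0.0023), Rab18 of the ER and lipid droplets (0.48, adjusted p = 0.0027) and, lower, Rab15 (−0.43, adjusted p = 0.0025). Without the block, the offset left no Rab gene called. Of these 6 genes, all but Rab11b had groups that overlapped in CPM. The higher ones were Rab18 (39.8% GC), Rab5a (42.3%), Rab21 (42.7%), Rab10 (44.5%) and Rab11b (48.1%), and the lower one Rab15 (55.3%). Across the 48 Rab genes, the log2 fold change with block and offset had a Pearson r of −0.30 (Spearman −0.38) with GC content. Across 12212 genes it was 0.02 (Spearman 0.00). A relation with GC content, of opposite sign, thus remained among the Rab genes, and its cause was not tested. The sign of the log2 fold change turned with the offset alone in 12 of the 48 Rab genes, among them Rab30 (from −0.25 to 0.35) and Rab24 (from 0.057 to −0.41).

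The offset also moved the gaps between related genes. With the block and the offset, the log2 fold change of Rab3a exceeded that of Rab3c by 0.33 (1.09 with the block alone) and that of Rab3b by 0.22 (0.60). The Rab40b minus Rab40c gap was −0.25 (−0.49 with the block alone). The Rab9 minus Rab9b gap stayed at 1.14 (1.45) and the Rab5a minus Rab5b gap was 0.55 (0.38). These gaps are differences between fitted values and carry no test.

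**Figure D5:**
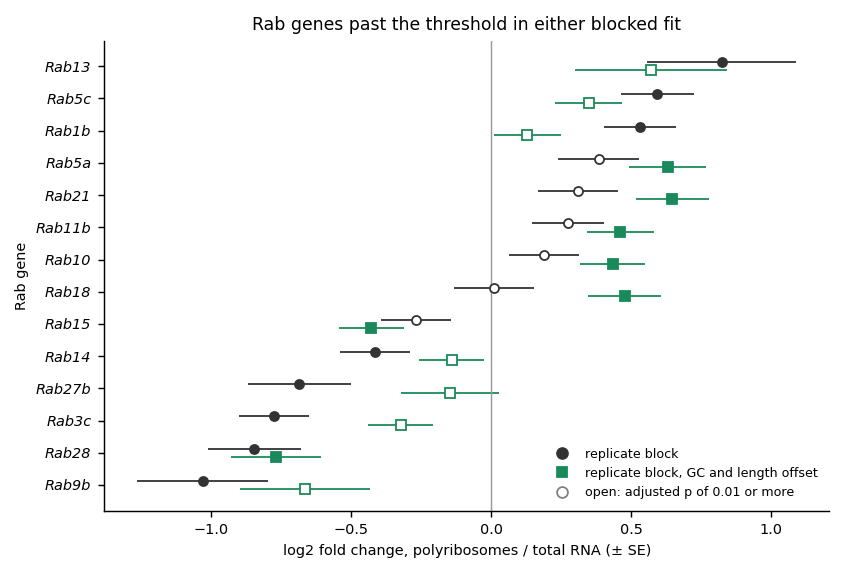
Log2 fold change with bars of 1 SE for the 14 Rab genes past an adjusted p of 0.01 in either blocked fit, without (black circles) and with (green squares) the GC and length offset, with open symbols where the threshold was not passed. Both symbols are filled for Rab28 alone, and the square of Rab1b lies at 0.13 against 0.53 for its circle.

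The partners of the Rab proteins were taken as whole lists. Of all genes tested, 49.9% were negative. Of 27 tested exchange factors, 20 were negative (74.1%, median −0.36), and 2 were called lower (7.41%; 2.36% of all genes) and none higher. These were Dennd5b (−0.91, adjusted p = 0.0075) and Dennd1b (−0.91, adjusted p = 0.0091), both DENN domain proteins. Of 31 tested GTPase-activating proteins, 23 were negative (74.2%, median −0.17) and only Rabgap1l was called, lower (3.23%; log2 fold change −0.88, adjusted p = 0.0055). Of 41 tested effectors, 27 were negative (65.9%, median −0.26), with 2 called lower (4.88%) and none higher, the dynein adaptor Bicd1 (−1.05, adjusted p = 0.0035) and the inositol phosphatase Ocrl (−0.93, adjusted p = 0.0089). With the block and the offset, Dennd5b was at −0.49 (adjusted p = 9.0e-04), Ocrl at −0.67 (adjusted p = 4.3e-05) and Rabgap1l at −0.73 (adjusted p = 7.9e-08). Dennd1b (−0.46, adjusted p = 0.011) and Bicd1 (−0.40, adjusted p = 0.012) were then no longer called.

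With the block, beside 11.8% of all genes higher and 13.2% lower, 0 exchange factors were called higher and 7 lower (25.9%), 1 GTPase-activating protein higher (3.23%) and 4 lower (12.9%), and 2 effectors higher (4.88%) and 13 lower (31.7%). With the block and the offset, beside 8.7% of all genes higher and 7.68% lower, the lower calls were 3 exchange factors (11.1%), 1 GTPase-activating protein (3.23%) and 7 effectors (17.5%), and the higher calls were 1 effector (2.5%) and none in the other lists. The shares were not tested against those of all genes. The 8 genes of prenylation and membrane extraction of Rabs had a median of −0.04 and no call without the block, and 1 higher and 2 lower with it. Among other small GTPases, none of 24 Arf and Arl genes (median 0.03) and none of 24 Ras and Rap genes (median −0.12) was called.

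Some Rab genes share exon bases with neighbours in the full Gencode vM21 annotation, a later release than the vM6 basic set used for counting. The paper describes strand-specific libraries, but the sources used here do not say whether reads were assigned by strand. Rab24 shares 62.4% of its exon bases with Prelid1 and Rab6a 19.0% with Mrpl48, both on the opposite strand. Rab2b shares 59.3% with Gm43766 on the opposite strand, and Rab43 shares 75.4% with Gm45140 on its own strand. Rab4b, which was under the filter on low counts, shares 65.0% with Gm21983, also on its own strand. Whether these overlaps also exist in the vM6 basic set was not checked. The values of Rab24, Rab2b, Rab43 and Rab4b, including the low counts of Rab4b, are therefore uncertain. None of these genes was called in any fit described here.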

How the data were processed

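The deposited table holds counts per protein-coding gene for 6 libraries. The authors mapped reads to GRCm38 (mm10) with STAR 2.5.2b, per the labels, and counted reads per gene of Gencode vM6 (basic set) with scripts built on HTSeq and other tools. The authors also deposited their DESeq2 columns (a mean signal, log2 fold changes, score columns and p-values), which were not used. The counts were tested with edgeR 4.0.16 (R 4.3.3): TMM scaling, filterByExpr, group as the only term, quasi-likelihood test, Benjamini-Hochberg adjustment over 12255 genes, threshold 0.01. SE was |log2 fold change| divided by the square root of F. DESeq2 1.42.0 was an alternative. Values per kb, GC content and coding ends used the principal Gencode vM21 transcript of each gene, matched by gene identifier for all 59 Rab genes.

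The replicate numbers pair the libraries: same-numbered titles share a date-like header tag, the methods split a preparation into aliquots, and same-numbered libraries deviated together from their group means (correlations 0.37, 0.26 and 0.38). Paralog ratios were log2 of counts plus 0.5. Named genes were the Rab genes called without or with the block (at most 8 per direction), the 6 of highest level per kb, and 10 set from knowledge of neurons. Rab10, Rab18 and Rab21 were named after their values were seen, as were other genes listed beside a count. Members and lists were chosen with earlier results of these data known.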

Additional observations from a re-analysis of the deposited data

How the results depend on the processing

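The median log2 fold change of the Rab genes stayed within the spread of the 3 pairs under every alternative. With library totals only, the median of all genes moved to −0.11 and that of the Rab genes to −0.12. The counts of Rab genes called depended on the setting. Against 0 higher and 0 lower, there were 3 and 3 at an adjusted p under 0.05, 1 lower with DESeq2, 3 lower without an expression filter (Rab28, Rab3c and Rab9b), 3 and 5 with the replicate block, and 5 and 2 with the block and the GC and length offset. Leaving out a library gave 0 to 0 higher and 0 to 1 lower, and 1 to 2 higher and 1 to 4 lower with the block, an alternative chosen after seeing the data in which the left-out library's partner no longer informs the contrast. Of all genes, against 87 higher and 289 lower, there were 799 and 1085 at 0.05, 321 higher with DESeq2, 42 higher with library totals, 476 and 566 without the filter, 1441 and 1622 with the block, 30 and 111 with the offset, and 1063 and 938 with both. Leaving out a library gave 0 to 61 higher and 22 to 208 lower. The causes of these differences were not tested.

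The offset turned the sign of 12 of the 48 Rab genes. Among the genes named by rule, the sign turned for Rab6a (−0.00) with DESeq2 (0.013), RLE size factors (0.0063), no filter (0.022), the replicate block (0.0081), the offset (0.24) and both (0.23), and it ran from −0.14 to 0.12 over the fits without a library. It turned for Rab11a with the offset (0.24) and both (0.24) and ran from −0.27 to 0.033 without a library, and it turned for Rab39b with the offset (0.15) and both (0.19). Over the fits without a library, the group difference ran from −0.25 to 0.18 for the Rab2a to Rab2b ratio, from −0.27 to 0.23 for Rab7 to Rab7b and from −0.23 to 0.030 for Rab22a to Rab31. The smallest library, total RNA replicate 3 with 1044955 counts, limits the low Rab genes, with 36 Rab genes at 10 or more counts there against 47 to 49 in the others.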
